A study of Prunus persica with 12 samples.

Results

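The genes described here are 3 identifiers that stand for steps in the making of ethylene and auxin in ripening peach fruit: ppa004774m (PpACS1, an ACC synthase), ppa008791m (PpACO1, an ACC oxidase) and ppa008176m (PpYUC11, a flavin monooxygenase of auxin synthesis). They were chosen by identifier out of 27864 in the tables, with earlier results of these data known. All 3 were found and passed the filter on low values. The names follow the published use of these peach identifiers; the tables hold identifiers alone, and none of the 27864 (0 matches) could be found in the RefSeq gene table, so no position or sequence is given. RNA was sequenced from the mesocarp (the flesh that is eaten) of 4 cultivars of peach (Prunus persica), with 2 libraries for each of 6 groups, and the series set out to find genes tied to softening and to volatile compounds. 'Zhong Hua Shou Tao' (ZH2), 'Jin Xiu Huang Tao' (JX2) and 'Yu Lu' (YL2) were sampled at the stage numbered 2, and 'Hu Jing Mi Lu' at the ripening stages numbered 1, 2 and 3 (HJ1, HJ2 and HJ3). The labels describe the flesh of ZH2 as hard melting and that of all other groups as soft melting, and the aroma of ZH2 and HJ1 as slight and that of all other groups as strong. The labels' Brix reading, which reflects sugar content, was 18 for ZH2, 12 for JX2, 14.9 for YL2, 12.1 for HJ2 and 12.5 for HJ3. The labels do not say how ripe the fruit of each stage number were, so cultivar and ripeness cannot be told apart at stage 2. Whether a pair of libraries represents different fruit or trees is not stated either, and every p-value here therefore reflects only the spread within such pairs, which may be technical.

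Ethylene drives the ripening of climacteric fruit such as peach. ACC synthase makes ACC from S-adenosylmethionine, the committed step of the pathway, and ACC oxidase turns ACC into ethylene; PpACS1 and PpACO1 are the members of these families known for the burst of ethylene in ripe peach flesh. YUCCA enzymes such as PpYUC11 convert indole-3-pyruvate to the auxin indole-3-acetic acid. In stony hard peaches, which stay firm and make little ethylene, low auxin and low PpYUC11 and PpACS1 transcripts in ripe flesh have been described, and auxin treatment restores ethylene production.

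The values are RPKM (read counts corrected for gene length and for the depth of the library), so levels can be set side by side between genes. Between libraries they also depend on the other transcripts present, which RPKM does not correct for. The median ratio of a library to the others ran from 0.912 (ZH2 replicate 2) to 1.26 (HJ1 replicate 1). Depth here means the total that RPKM was divided by, worked back from the steps between values. It lay between 1205507 reads (HJ1 replicate 2) and 3222252 reads (HJ2 replicate 2). The reads counted in genes make up nearly all of it, 1941524 of 1942106 in HJ1 replicate 1. Depth is thus close to the reads assigned to genes, and the number of reads sequenced is not known. A single read of a gene of 1 kb was thus worth 0.310 to 0.830 RPKM. Whole tissue was sequenced, so a lower level of a transcript can mean less of it per cell or fewer cells that make it, which cannot be told apart.

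Within 'Hu Jing Mi Lu', all 3 genes rose at both steps of ripening, and the early step was by far the larger. PpACS1 in HJ2 was 104 times, and PpACO1 21.6 times, its level in HJ1, while the step to HJ3 added a further 2.26 and 1.88 times. PpYUC11, almost unread at stage 1, followed the same course at a much lower level.

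PpACS1, the ACC synthase, was close to absent at stage 1. It stood at 1.44 and 4.64 RPKM in HJ1, on 5 and 10 reads, at 301 and 329 RPKM in HJ2, and at 704 and 721 RPKM in HJ3. The 3 stages did not overlap. The HJ1 libraries lay far apart, with an SD of 74.4% of their mean, against 6.14% in HJ2 and 1.65% in HJ3 (n = 2 each). The mean was 315 ± 19.4 RPKM in HJ2 against 3.04 ± 2.26 RPKM in HJ1 (SD, n = 2 each), a ratio of 104, which became 67.9 without HJ1 replicate 1 and 219 without HJ1 replicate 2. On the log2(RPKM + 1) scale, which understates the change of low genes, the difference was 6.41 ± 0.273 (SE, limma adjusted p = 4.15e-08). The level in HJ3, 712 ± 11.7 RPKM (SD, n = 2), was 2.26 times that of HJ2, a log2 difference of 1.18 ± 0.273 (SE, limma adjusted p = 0.00766). This call was lost without HJ2 replicate 1, which left a difference of 1.11 (limma adjusted p = 0.0608). Between HJ3 and HJ1 the ratio was 234, or 154 and 495 without HJ1 replicates 1 and 2, and the log2 difference 7.59 ± 0.273 (SE, limma adjusted p = 6.17e-09).

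PpACO1, the ACC oxidase, was already well read at stage 1 and became one of the most abundant transcripts of the flesh. It stood at 689 and 732 RPKM in HJ1, at 15786 and 14895 RPKM in HJ2, and at 27967 and 29832 RPKM in HJ3. The stages did not overlap, and the libraries of a pair lay close together (SD of 4.11% to 4.56% of the mean, n = 2 per group). These levels placed it 132nd and 123rd by RPKM in the HJ1 libraries and 3rd in all 4 libraries of HJ2 and HJ3. Its reads made up 0.0963% and 0.102% of the depth in HJ1, 2.21% and 2.08% in HJ2, and 3.91% and 4.17% in HJ3. The exact (Clopper-Pearson) 95% intervals of these shares, which cover counting error only, were narrow, for example 4.14% to 4.20% in HJ3 replicate 2. The level in HJ2 was 21.6 times that in HJ1 (log2 difference 4.43 ± 0.0888, SE, limma adjusted p = 7.90e-11), and that in HJ3 was 1.88 times that in HJ2 (log2 difference 0.91 ± 0.0888, limma adjusted p = 1.96e-05). Between HJ3 and HJ1 the ratio was 40.7 (log2 difference 5.34 ± 0.0888, SE, limma adjusted p = 2.26e-11).

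PpYUC11, the auxin synthesis gene, had a single read in each HJ1 library. Its RPKM was 0.413 and 0.665 in HJ1, 30.5 and 34.6 in HJ2, and 71.1 and 50.1 in HJ3. No stage overlapped another, but the HJ1 values lie below the level of 3 reads (1.24 and 1.99 RPKM), the expected number that a count of 0 still allows, and the HJ3 libraries differ more from each other than those of HJ2. The mean was 32.5 ± 2.85 RPKM in HJ2 (SD, n = 2), on 232 reads, against 2 reads in HJ1. The depth-corrected ratio was 64.5, with an exact 95% counting interval of 17.7 to 536, and limma gave a log2 difference of 4.45 ± 0.184 (SE, adjusted p = 3.26e-08). In HJ3 the mean was 60.6 ± 14.8 RPKM (SD, n = 2), 1.86 times that of HJ2 (log2 difference 0.86 ± 0.184, SE, limma adjusted p = 0.00478). Between HJ3 and HJ1 the depth-corrected ratio was 121, with a counting interval of 33.2 to 1007 (limma log2 difference 5.31 ± 0.184, SE, adjusted p = 4.81e-09).

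**Figure D1:**
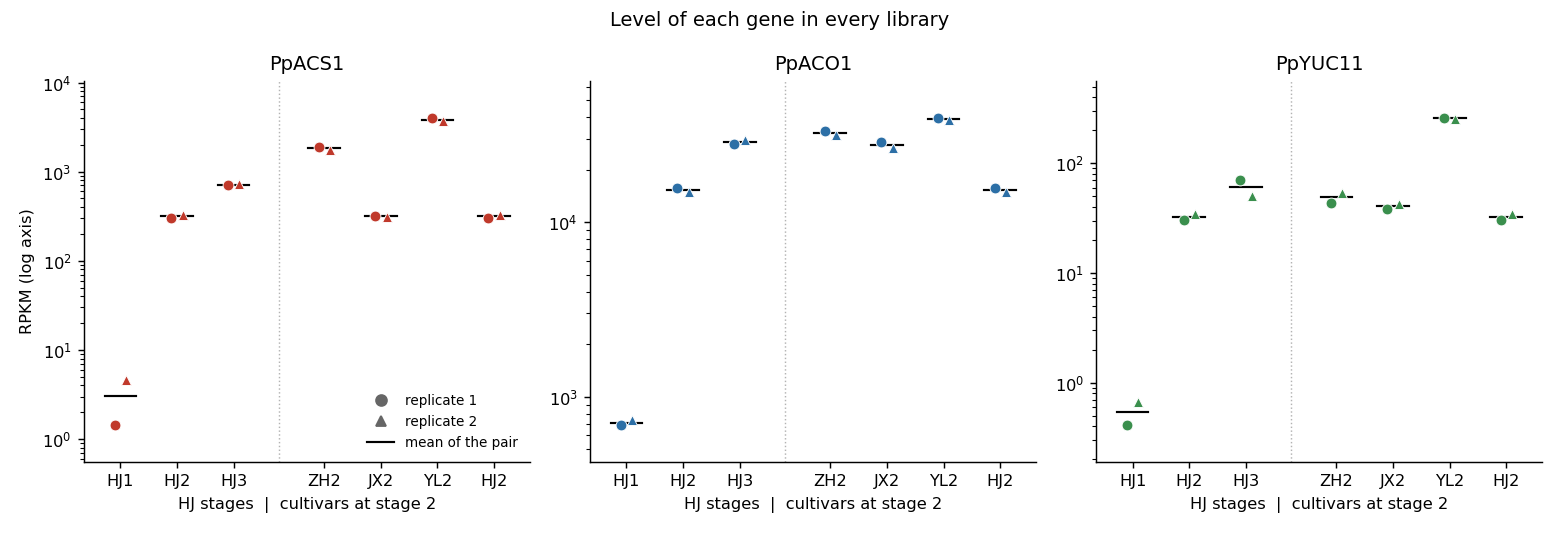
RPKM of PpACS1, PpACO1 and PpYUC11 in every library, on log axes whose range differs between panels; left of the dotted line are the 3 stages of 'Hu Jing Mi Lu', right of it the cultivars at stage 2, with HJ2 drawn on both sides. Each symbol is a library and each bar the mean of a pair: all 3 genes climb from HJ1 to HJ3, YL2 is the highest of the stage 2 groups in each panel, and JX2 sits beside HJ2 for PpACS1 (314 and 315 RPKM) but well above it for PpACO1 (27760 and 15340.3 RPKM).

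The shape of the rise was alike in the 3 genes. Of the whole log2(RPKM + 1) difference between HJ3 and HJ1, the early step held 84.5% for PpACS1, 82.9% for PpACO1 and 83.8% for PpYUC11. Both steps share the HJ2 libraries. In HJ1 the share of PpACS1 rests on 5 and 10 reads and that of PpYUC11 on 1 read per library, so both depend on the pseudocount. All 3 genes were called higher in HJ2 than in HJ1, where limma called 8.22% of 15217 genes higher (10.8% after each library was rescaled by its median ratio to the others). All 3 were also higher in HJ3 than in HJ2, against 10.7% of genes (13.6% after rescaling), and in HJ3 than in HJ1, against 10.5% (16.6% after rescaling). Among all genes tested, and at a pseudocount of 1, PpACS1 had the 11th highest log2 difference for HJ2 against HJ1 and the 4th highest for HJ3 against HJ1. These ranks are not firm, because the differences of PpACS1 moved from 6.41 and 7.59 to 6.87 and 8.04 at a pseudocount of 0.1. For HJ2 against HJ1 the difference ran from 5.81 to 7.02 with single libraries left out. PpACO1 ranked 22nd for HJ2 against HJ1 and 17th for HJ3 against HJ1. PpYUC11 is given no rank in these 2 comparisons, since its difference, on 1 read per HJ1 library, depended on the pseudocount: 4.45 and 5.31 at a pseudocount of 1, and 5.70 and 6.58 at 0.1. For HJ3 against HJ2 they were far less extreme, with PpACS1 993rd, PpACO1 1322nd and PpYUC11 1426th. Over all genes the median log2 difference was -0.21 at each of the 2 steps and -0.37 across both. Rescaling raised it by 0.16 at each step and by 0.32 across both, and the calls of all 3 genes were kept.

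**Figure D2:**
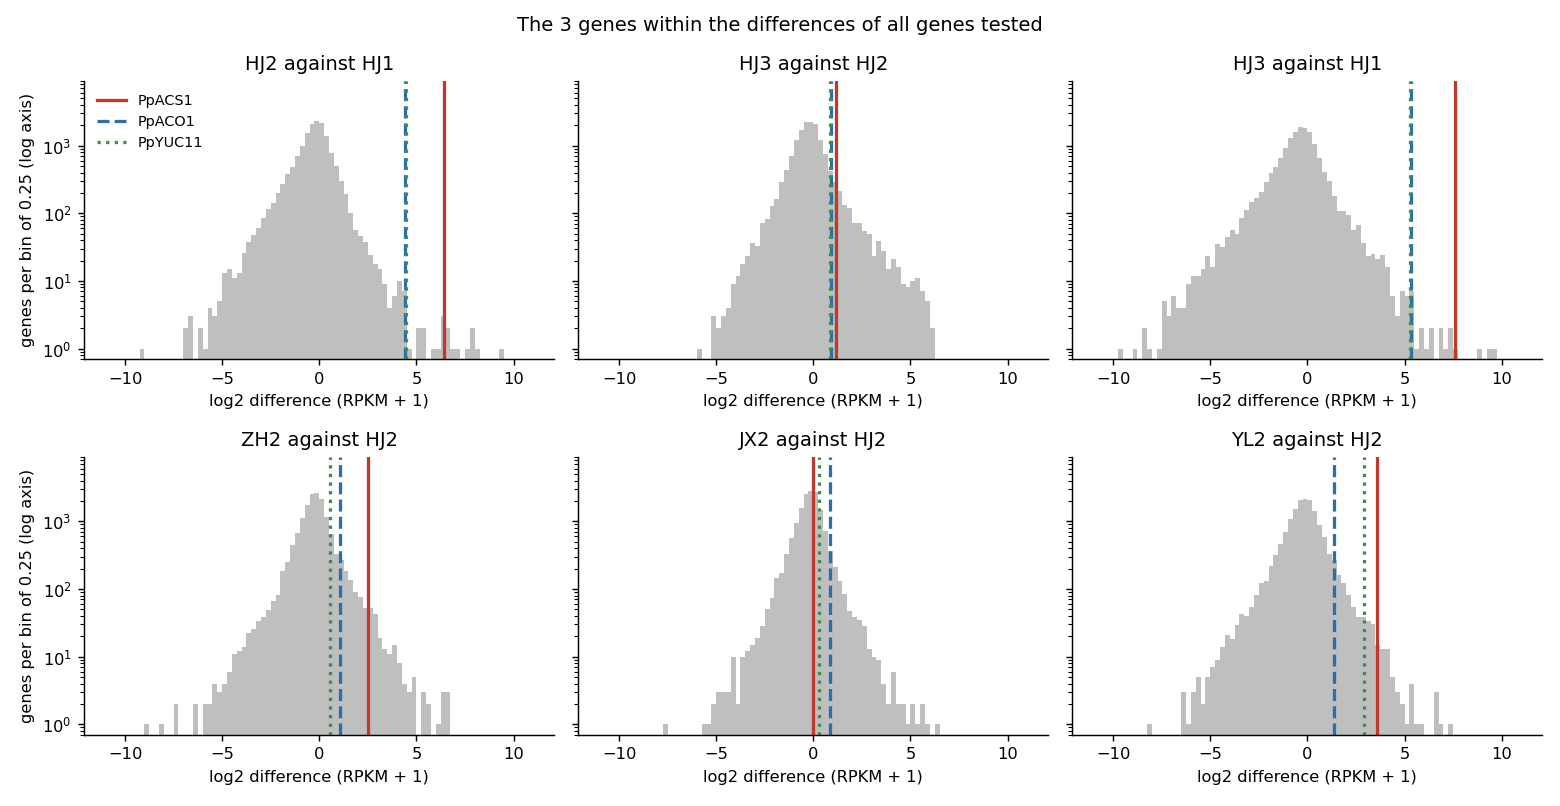
Log2 difference on the log2(RPKM + 1) scale (x axis) against the number of genes per bin (y axis, log) for all 15217 genes tested, in the 3 HJ comparisons (top) and the 3 cultivars set against HJ2 (bottom); lines mark PpACS1 (solid), PpACO1 (dashed) and PpYUC11 (dotted). The genes stand in the far right tail for HJ2 against HJ1 and HJ3 against HJ1, and PpACS1 stands near the centre for JX2 against HJ2.

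The ratio of PpACO1 to PpACS1 also changed with stage. PpACO1 outnumbered PpACS1 in RPKM in every library, by 479 and 158 times in HJ1, 52.4 and 45.3 times in HJ2, and 39.7 and 41.4 times in HJ3. The stages did not overlap in this ratio, which does not depend on how a library is scaled; the HJ1 values rest on the 5 and 10 reads of PpACS1. PpACS1 over PpYUC11 was 9.87 and 9.51 in HJ2 and 9.90 and 14.4 in HJ3. The HJ3 libraries both lay above the HJ2 ones, but a single HJ3 library was close to them, at 9.90 against 9.87. PpACO1 over PpYUC11 was 517 and 431 in HJ2 and 393 and 595 in HJ3, so these stages overlapped in it. In HJ1, where PpYUC11 had 1 read per library, neither ratio to PpYUC11 can be read with any precision.

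At stage 2 the cultivars were compared to see how the same genes stand in fruit that differ in flesh texture and aroma. YL2 had the highest level of all 3 genes. Between YL2 and HJ2 the ratio was 12.2 for PpACS1, 7.87 for PpYUC11 and 2.55 for PpACO1. In ZH2, the hard melting cultivar, the ratios to HJ2 were 5.78 for PpACS1, 2.12 for PpACO1 and 1.50 for PpYUC11. JX2 was above HJ2 in PpACO1 alone by a called amount. The comparisons against HJ2 share the HJ2 libraries.

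PpACS1 stood at 1885 and 1759 RPKM in ZH2, 316 and 313 RPKM in JX2, 4011 and 3662 RPKM in YL2, and 301 and 329 RPKM in HJ2. In the order of levels YL2 came before ZH2, and JX2 and HJ2 stood together below them, with both JX2 values inside the range of HJ2; no other groups overlapped. The level in YL2, 3837 ± 247 RPKM against 315 ± 19.4 RPKM in HJ2 (SD, n = 2 each), was 12.2 times higher (log2 difference 3.60 ± 0.273, SE, limma adjusted p = 2.28e-06). ZH2, at 1822 ± 89.2 RPKM (SD, n = 2), was 5.78 times HJ2 (log2 difference 2.53 ± 0.273, SE, limma adjusted p = 5.31e-05) and 5.80 times JX2 (log2 difference 2.53 ± 0.273, limma adjusted p = 0.00011). It stood at 0.475 times YL2 (log2 difference -1.07 ± 0.273, SE, limma adjusted p = 0.0178). That call was lost when either library of ZH2 or of YL2 was left out (limma adjusted p of 0.0727 to 0.115) and at a pseudocount of 0.1 (0.0861). JX2, at 314 ± 2.39 RPKM (SD, n = 2), was 0.0819 times YL2 (log2 difference -3.60 ± 0.273, SE, limma adjusted p = 4.48e-06). Between JX2 and HJ2 no difference was called; the log2 difference was -0.0017 with a 95% confidence interval of -0.60 to 0.60 (limma adjusted p = 1).

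All groups share a single estimate of the spread, and for PpACS1 most of it lay in the HJ1 pair. In a fit without both HJ1 libraries, tried once the values were known, the SE was 0.0748 in place of 0.273. The differences were as before, JX2 against HJ2 was again not called (adjusted p = 1), and the limma adjusted p was 8.62e-05 for ZH2 against YL2 and 3.75e-05 for HJ3 against HJ2.

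PpACO1 was abundant in every cultivar. It stood at 33474 and 31523 RPKM in ZH2, 28868 and 26652 RPKM in JX2, 39703 and 38451 RPKM in YL2, and 15786 and 14895 RPKM in HJ2. None of these groups overlapped, and HJ2 lay well below the other cultivars. The gene was the 2nd most abundant by RPKM in the libraries of YL2 and JX2 and the 3rd in those of ZH2 and HJ2. Its reads made up 4.68% and 4.41% of the depth in ZH2, 4.04% and 3.73% in JX2, 5.55% and 5.38% in YL2, and 2.21% and 2.08% in HJ2. RPKM is relative to depth, so such a share lowers the RPKM of all other genes in a library.

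Against HJ2, PpACO1 was 2.55 times higher in YL2 (log2 difference 1.35 ± 0.0888, SE, limma adjusted p = 8.11e-07), 2.12 times in ZH2 (1.08 ± 0.0888, adjusted p = 5.74e-06) and 1.81 times in JX2 (0.86 ± 0.0888, adjusted p = 7.46e-05). JX2, at 27760 ± 1567 RPKM, stood at 0.710 times the 39077 ± 886 RPKM of YL2 (SD, n = 2 each; log2 difference -0.49 ± 0.0888, SE, limma adjusted p = 0.00207). In the order YL2, ZH2, JX2 and HJ2, limma on log2(RPKM + 1) told JX2 from HJ2 but called ZH2 apart from neither YL2 nor JX2. ZH2, at 32499 ± 1380 RPKM, was 0.832 times YL2 (log2 difference -0.27, 95% confidence interval -0.46 to -0.07, limma adjusted p = 0.0615) and 1.17 times JX2 (log2 difference 0.23, interval 0.03 to 0.42, limma adjusted p = 0.111). Limma voom on whole reads called both, with adjusted p-values of 5.85e-07 and 0.000104 at differences of -0.27 and 0.22.

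PpYUC11 set YL2 apart from the other cultivars. It stood at 43.8 and 54.1 RPKM in ZH2, 38.7 and 42.6 RPKM in JX2, 259 and 253 RPKM in YL2, and 30.5 and 34.6 RPKM in HJ2. YL2 was far above the rest. The values of ZH2, JX2 and HJ2 followed closely on each other without overlapping, on 332, 163 and 232 reads per pair. Counting intervals of some of their libraries did overlap, so this order is uncertain. They were 36.8 to 51.8 RPKM in ZH2 replicate 1, 33.8 to 52.9 RPKM in JX2 replicate 2 and 29.1 to 40.8 RPKM in HJ2 replicate 2. The mean in YL2, 256 ± 4.45 RPKM against 32.5 ± 2.85 RPKM in HJ2 (SD, n = 2 each), was 7.87 times higher (log2 difference 2.94 ± 0.184, SE, limma adjusted p = 5.50e-07). JX2 was 0.159 times YL2 (log2 difference -2.63 ± 0.184, SE, limma adjusted p = 2.52e-06) and ZH2 0.191 times YL2 (-2.37 ± 0.184, adjusted p = 6.26e-06).

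Among the 3 lower cultivars the differences in PpYUC11 were small. ZH2, at 48.9 ± 7.26 RPKM (SD, n = 2), was 1.50 times HJ2, with a log2 difference of 0.57 ± 0.184 (SE) that just passed, at a limma adjusted p of 0.0437. The call was lost when any library other than those of HJ3 was left out, which is 10 of the 12 libraries (adjusted p of 0.0225 to 0.263 over all 12), and with the replicate number as a block (0.0559), at a pseudocount of 0.1 (0.0929) and without the filter on low values (0.0534). JX2, at 40.6 ± 2.76 RPKM, did not differ from HJ2 by a called amount (log2 difference 0.31, 95% confidence interval -0.09 to 0.72, limma adjusted p = 0.302), nor did ZH2 from JX2 (0.26, interval -0.15 to 0.66, adjusted p = 0.401).

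**Figure D3:**
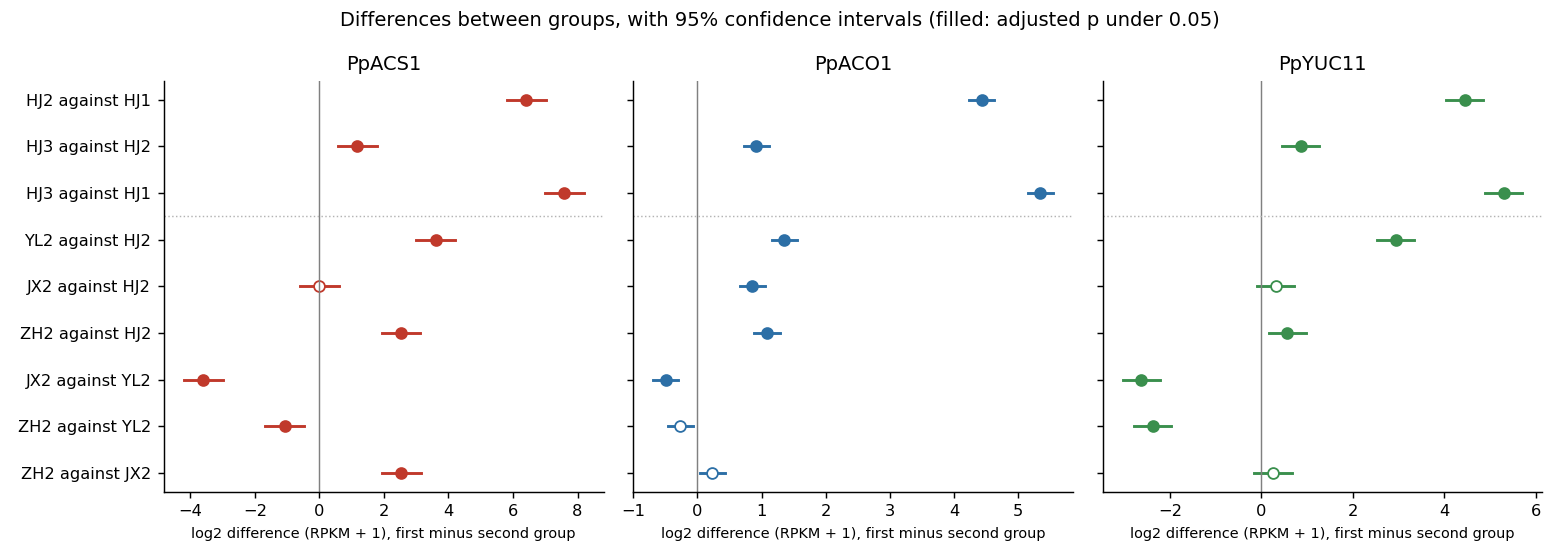
Log2 difference on the log2(RPKM + 1) scale (x axis, range differs between panels) for the 9 comparisons (rows), first-named group minus second; bars are 95% confidence intervals from limma, and open circles did not pass an adjusted p of 0.05. Of 27 differences 22 passed, 17 higher and 5 lower in the first-named group, but the 9 comparisons reuse the same 6 groups. In the direction of these calls limma called from 5.32% (JX2 against HJ2) to 11.5% (YL2 against HJ2) of the 15217 genes. The calls of PpYUC11 in ZH2 against HJ2 and of PpACS1 in ZH2 against YL2 were lost under several alternatives. PpACS1 lies at 0 for JX2 against HJ2, and the intervals of PpACO1 are the narrowest.

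Counted by comparison, all 3 genes were called higher in YL2 than in HJ2, where limma called 11.5% of the 15217 genes higher (14.7% after rescaling). All 3 were higher in ZH2 than in HJ2, against 7.97% of genes (11.2% after rescaling), though the call of PpYUC11 was lost under most alternatives. In JX2 against HJ2 only PpACO1 was called higher, against 5.32% of genes (6.77% after rescaling). All 3 were called lower in JX2 than in YL2, against 11.5% of genes. PpACS1 and PpYUC11 were called lower in ZH2 than in YL2, against 9.47% of genes. There the call of PpACS1 was lost when any library of either group was left out and at a pseudocount of 0.1. PpACS1 alone was called higher in ZH2 than in JX2, against 7.64% of genes (9.72% after rescaling). By log2 difference, PpACS1 was the 57th highest of all genes in YL2 against HJ2, the 80th in ZH2 against JX2 and the 179th in ZH2 against HJ2. In JX2 against YL2 it was the 29th lowest, and PpYUC11 the 84th lowest. Set against HJ2, the median gene had a log2 difference of -0.23 in ZH2, -0.15 in JX2 and -0.18 in YL2, and rescaling raised it by 0.20 in ZH2, 0.13 in JX2 and 0.15 in YL2.

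The balance between the genes differed between cultivars, in ratios taken within a library and so independent of its scaling. PpACO1 over PpACS1 was 17.8 and 17.9 in ZH2, 91.3 and 85.2 in JX2, 9.90 and 10.5 in YL2, and 52.4 and 45.3 in HJ2. The 4 cultivars did not overlap, and the order of this ratio was JX2, HJ2, ZH2 and YL2 from the highest down. JX2 and HJ2 overlapped in PpACS1 but not in PpACO1 or in this ratio.

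PpACS1 over PpYUC11 was 43.0 and 32.5 in ZH2, 8.18 and 7.35 in JX2, 15.5 and 14.5 in YL2, and 9.87 and 9.51 in HJ2. ZH2 was the highest in this ratio, and again no cultivars overlapped, though JX2 and HJ2 lay close together. PpACO1 over PpYUC11 was 764 and 583 in ZH2, 747 and 626 in JX2, 153 and 152 in YL2, and 517 and 431 in HJ2. ZH2 and JX2 overlapped here, HJ2 lay below them, and YL2 was far below all others. Both ratios rest on few reads of PpYUC11, 82 and 81 in the JX2 libraries and 93 and 139 in those of HJ2. No counting interval was worked out for a ratio, so the gaps between JX2 and HJ2 are uncertain. These ratios were not tested.

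**Figure D4:**
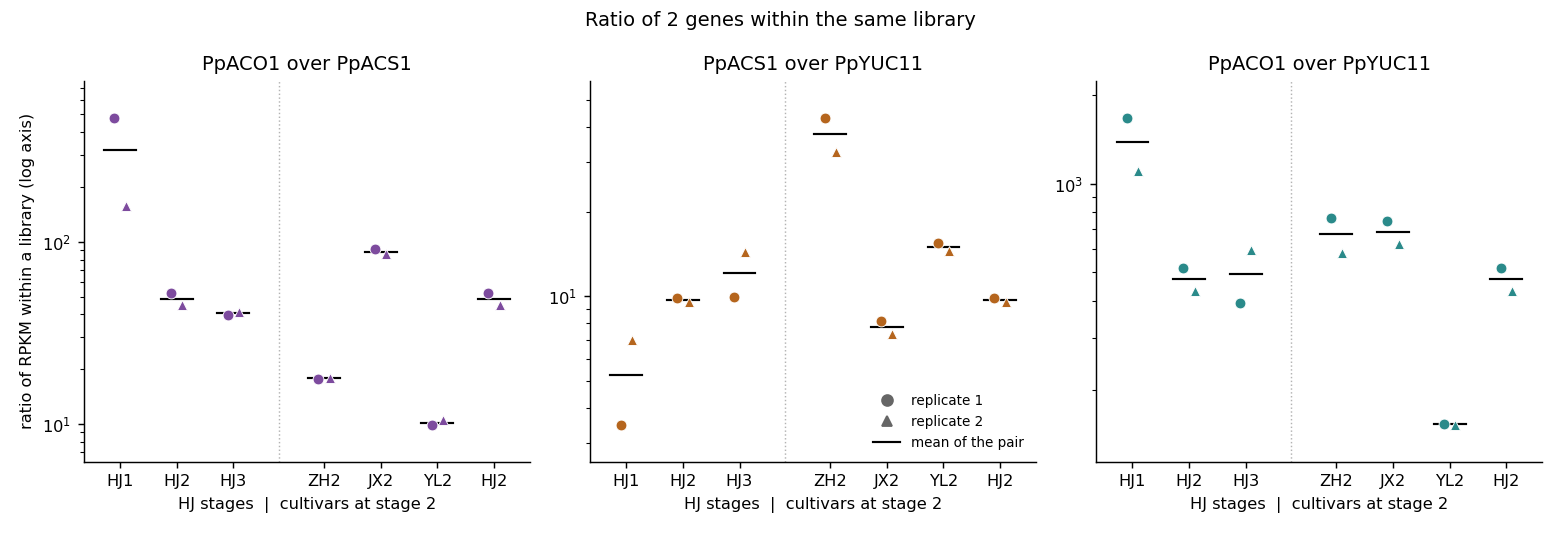
Ratio of the RPKM of 2 genes within the same library (log axes, range differs between panels), with the HJ stages left of the dotted line and the cultivars at stage 2 right of it; each symbol is a library and each bar the mean of a pair. PpACO1 over PpACS1 is lowest in YL2 (9.90 and 10.5) and PpACS1 over PpYUC11 is highest in ZH2 (43.0 and 32.5); the HJ1 points rest on at most 10 reads of PpACS1 and 1 read of PpYUC11.

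The stage 2 levels of other cultivars can be set beside the last stage of 'Hu Jing Mi Lu', without a test. PpACS1 averaged 1822 RPKM in ZH2, 314 in JX2 and 3837 in YL2, against 712 RPKM in HJ3. PpACO1 averaged 32499 RPKM in ZH2, 27760 in JX2 and 39077 in YL2, against 28899 RPKM in HJ3. PpYUC11 averaged 48.9 RPKM in ZH2, 40.6 in JX2 and 256 in YL2, against 60.6 RPKM in HJ3. YL2 stood above HJ3 in each gene, and ZH2 above it in PpACS1 and PpACO1 without overlap. The PpYUC11 values of ZH2 (43.8 and 54.1 RPKM) overlapped those of HJ3 (71.1 and 50.1 RPKM). JX2 lay below HJ3 in PpACS1 (316 and 313 against 704 and 721 RPKM) and in PpYUC11 (38.7 and 42.6 RPKM). In PpACO1 JX2 overlapped HJ3 (28868 and 26652 against 27967 and 29832 RPKM). How many of all genes separate from HJ3 in this way was not worked out.

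The 3 genes also lay close to each other in pattern. Over the 12 libraries, Pearson's r of log2(RPKM + 1) was 0.969 between PpACS1 and PpYUC11, 0.958 between PpACS1 and PpACO1, and 0.945 between PpACO1 and PpYUC11; the libraries fall into 6 pairs and the low HJ1 pair weighs on every value. Spearman's rho was 0.909, 0.944 and 0.888 for the same pairs. Among 6825 other genes with a mean of at least 10 RPKM, PpYUC11 ranked 6th and PpACO1 10th in likeness to PpACS1. In likeness to PpYUC11, PpACS1 ranked 8th and PpACO1 26th, and in likeness to PpACO1, PpACS1 ranked 28th and PpYUC11 42nd.

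The genes most like each of them by the same measure carry no name in the tables. For PpACS1 these were ppa006863m (r = 0.991) and ppa007872m (r = 0.980). The RPKM of ppa006863m averaged 5.23 in HJ1, 51.2 in HJ2 and 96.0 in HJ3, and 101 in ZH2, 50.1 in JX2 and 165 in YL2, so that it shared the near equal levels of JX2 and HJ2. For PpACO1 they were ppa000375m (r = 0.992), with a narrow spread of group means, 95.2 RPKM in ZH2 and 48.3 RPKM in HJ1, and ppa012967m (r = 0.990), with 36.9 RPKM in HJ1 and 2022 RPKM in YL2. For PpYUC11 they were ppa005908m (r = 0.986), with 33.4 RPKM in HJ1 and 549 RPKM in YL2, and ppa001821m (r = 0.979), with 44.9 and 164 RPKM there.

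The most opposite genes had their highest mean in HJ1. For PpACS1 they were ppa004877m (r = -0.983) and ppa013983m (r = -0.980), the second with 82.0 RPKM in HJ1, 4.83 in HJ2, 4.53 in JX2 and 0 reads in YL2. For PpACO1 they were ppa013833m (r = -0.995) and ppa025024m (r = -0.989), at 105 and 170 RPKM in HJ1 and at 0 reads in HJ3 and all other cultivars. For PpYUC11 they were ppa011438m (r = -0.980), with 2035 RPKM in HJ1, 182 RPKM in YL2 and 485 to 540.1 RPKM in the other groups, and ppa003138m (r = -0.972), with 56.9 RPKM in HJ1 and 2.68 RPKM in YL2. These correlations are descriptions over 12 libraries and carry no test.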

How the data were processed

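Each of the 12 libraries has a table of RPKM, one value a gene, as the authors deposited it, per the file headers. The submitters' processing notes list 4 programs without their roles: DESeq (1.10.1), HTSeq (0.5.3), TopHat (1.4.0) and Bowtie (0.12.8). Genome build, annotation, strand and the treatment of reads shared by near-identical genes: not given in the sources used here, so reads of close family members may be mixed. Samples were grouped by their titles.

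From the steps between low values, whole reads, depths and gene lengths were worked back (Python 3.11.15, numpy 2.4.6). The step of each gene was chosen so that all its values were whole within 0.001 reads, and such a step was found for 17316 genes. That all values were then whole is therefore no check. The scale was set on a part of the genes, and over genes read in several libraries 99.98% of the lengths came out as whole bases. The lengths were 1789 bp for PpACS1, 1398 bp for PpACO1 and 1248 bp for PpYUC11. Counting intervals are exact and hold no replicate error.

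Differences were tested two-sided with limma 3.58.1 (R 4.3.3; empirical Bayes with a mean trend) on log2(RPKM + 1), for the 15217 genes reaching 1 RPKM in at least 2 libraries. One model held the 12 libraries, the 6 group means and 6 residual degrees of freedom. Benjamini-Hochberg adjustment ran over all genes of each of 9 comparisons, and calls needed an adjusted p under 0.05. The working back of reads and the limma step were run on simulated data. For limma these had a single setting of replicate spread for all genes and few changed genes. The real data differ in both, so that run checks the code alone. Alternatives were a pseudocount of 0.1, no filter, median-ratio rescaling over 11584 genes, the replicate number as a block, limma voom on whole reads, single libraries left out, and both HJ1 libraries left out. As most like or most opposite a gene, the 2 with the highest and the 2 with the most negative Pearson r were named, among genes averaging at least 10 RPKM. Pathway lists planned by product name were not used, because no identifier matched the 26412 genes of Prunus_persica_NCBIv2. The members and tests were chosen with earlier results of these data known.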

Additional observations from a re-analysis of the deposited data

How the results depend on the processing

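Of 480 recomputed log2 differences of the 3 genes, 456 kept their direction and their side of the threshold. This count overstates how stable the differences are, because many of them could not change. Dropping the filter, adding the replicate block or leaving out libraries of groups outside a comparison alters its spread and adjusted p alone. Each call in HJ2 against HJ1, HJ3 against HJ1 and YL2 against HJ2 was kept under every alternative run. PpACS1 in JX2 against HJ2 (-0.0017) changed sign without ever being called, at 0.15 after rescaling and between -0.0642 and 0.0608 with single libraries left out. For PpYUC11 in ZH2 against HJ2 the call was lost at a pseudocount of 0.1 (0.58), without a filter (0.57) and with the replicate block (0.57), and the value lay between 0.42 and 0.72 with single libraries left out. For PpACS1 in ZH2 against YL2 it was lost at a pseudocount of 0.1 (-1.07), with a range of -1.14 to -1.01 over libraries left out, and in HJ3 against HJ2 that range was 1.11 to 1.24. Voom on whole reads added calls of PpACO1 in ZH2 against YL2 (-0.27) and against JX2 (0.22). What lay behind each of these changes was not tested beyond the values above.

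With single libraries left out, the number of genes called ran from 2886 to 4555 for HJ3 against HJ2, 1241 to 2602 for JX2 against HJ2, 2357 to 3927 for ZH2 against HJ2, 2357 to 3817 for JX2 against YL2, 1770 to 2966 for ZH2 against YL2, and 1437 to 2652 for ZH2 against JX2. By Spearman's rho, 0 of the 2 most similar genes of each member were the same. The replicate numbers did not pair the libraries: over 15 pairs of groups, the correlation across genes of replicate 1 minus replicate 2 lay between -0.067 and 0.05. The replicate block changed no other call of the 3 genes. The HJ1 levels of PpACS1 and PpYUC11 rest on 15 and 2 reads, which limits every ratio to HJ1.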
